A study of Homo sapiens with 13 samples.

Results

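The midbrain and isthmus transcription factor genes described here are EN1, EN2, PAX2, PAX5, PAX8, OTX1, OTX2, GBX2, LMX1A and LMX1B. These 10 genes were taken by symbol from the raw count tables, out of 60500 genes in the doxycycline table and 60554 in the FGF2 table. All 10 had at least 1 count in the doxycycline set, 8 had counts in the FGF2 set, and 5 of those passed the filter on low counts and were tested. The label of the list names a region of the brain, but of its defining genes EN1 had at most 3 counts and EN2 at most 16 in any library. The genes are therefore described one by one and not as a regional identity. Sequencing gave 13 libraries of stable cells made from H9, a human embryonic stem cell line, in which doxycycline turns on the proneural factor NEUROG2 and the cells become neurons. The doxycycline set has 5 groups of 1 library each, all of them from the engineered cells. These are day 0 without any treatment, day 5 with and without doxycycline, and day 11 with and without doxycycline, which was given throughout at 1 µg/ml. The FGF2 set has 4 groups of 2 libraries, and every culture in it received doxycycline at 1 µg/ml for the first 6 days. Day 12 FGF2 cultures received FGF2 at 20 µg/ml, as the labels write the dose, for the last 6 days, after doxycycline had ended. Day 12 control cultures had the same course without FGF2. The descriptions of both day 12 controls state 6 days of growth, although their titles and the media periods they list come to 12 days, and 1 field starts late FGF2 a day later than another. Day 6 FGF2 cultures received FGF2 at 20 µg/ml together with doxycycline for 6 days, and day 6 control cultures received doxycycline alone. The labels ask how FGF2 changes gene expression in these neurons.

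In the vertebrate embryo OTX2 is expressed in the forebrain and midbrain and GBX2 in the anterior hindbrain, and the border where they meet becomes the isthmus, a signalling centre that secretes FGF8. PAX2, PAX5, PAX8, EN1 and EN2 are expressed across that border and maintain one another and the signal, while LMX1B is needed for it and LMX1A marks the midbrain floor plate and the roof plate. Several of these genes also act elsewhere: OTX2 in pluripotent cells leaving the naive state, PAX5 in B cells, PAX2 and PAX8 in kidney and ear, and LMX1B in limb, kidney and serotonergic neurons.

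Each library of the doxycycline set held 28443657 to 47159475 counts, and each of the FGF2 set 22802501 to 30014661. Levels are counts per 1000000 counted reads (CPM) after TMM scaling within each set, and 3 counts, the floor used for a gene with none, correspond to 0.0725 to 0.129 CPM. No library of the doxycycline set has a replicate, so its differences carry counting intervals only (95%, exact binomial) and no test. Titles of the doxycycline set name hES-N1. In each group of the FGF2 set the library titled hES-N2G1 is called replicate 1 here, and the one titled hES-N2G2 replicate 2. The source field of every library reads hES-N1. Whether these names mark lines, clones or cultures, and whether both sets share 1 line, is not stated, so p-values measure only the spread between these libraries. The day 6 FGF2 libraries differed from each other more than the libraries of the other groups did, with a chi-square of 19.7 for each degree of freedom, where the other groups had 2.95 to 3.32. NEUROG2, which checks the induction, had 1564 CPM with doxycycline and 1.34 CPM without it on day 5, and 1018 CPM with doxycycline and 6.26 CPM without it on day 11. In the FGF2 set NEUROG2 had 49.2 to 54.6 CPM in the 4 day 12 libraries and 7538 to 7824 CPM in the 4 day 6 libraries. The summed level of 10 pan-neuronal genes was 13167 CPM with doxycycline and 83.6 CPM without it on day 5.

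The sequences before the transcription starts of the 4 genes with the most counts in the neuron libraries are shown so that their composition can be compared. OTX2 and GBX2 moved in opposite directions from day 6 to day 12 in controls of the FGF2 set. PAX5 and LMX1B were both higher with doxycycline on day 5. RefSeq promoter windows (GRCh38.p14) matched 9 of the 10 genes, with 12 windows in all. Each run below holds the 250 bases before a start, 5′ to 3′ on the gene's strand. Capitals mark every CANNTG, the general E-box core, of which proneural factors such as NEUROG2 bind only some forms.
PAX5 (chr9:37034269-37034518, minus strand): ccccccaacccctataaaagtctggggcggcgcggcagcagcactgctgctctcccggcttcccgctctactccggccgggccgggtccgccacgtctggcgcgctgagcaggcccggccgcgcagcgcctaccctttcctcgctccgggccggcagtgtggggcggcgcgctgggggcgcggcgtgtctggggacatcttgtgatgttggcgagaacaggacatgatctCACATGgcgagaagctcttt
LMX1B (chr9:126613678-126613927, plus strand): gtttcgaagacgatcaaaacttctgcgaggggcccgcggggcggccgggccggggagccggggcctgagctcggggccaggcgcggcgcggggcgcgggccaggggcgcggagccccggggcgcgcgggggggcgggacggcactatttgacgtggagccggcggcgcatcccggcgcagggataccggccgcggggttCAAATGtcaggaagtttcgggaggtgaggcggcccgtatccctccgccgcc
GBX2 (chr2:236168387-236168636, minus strand): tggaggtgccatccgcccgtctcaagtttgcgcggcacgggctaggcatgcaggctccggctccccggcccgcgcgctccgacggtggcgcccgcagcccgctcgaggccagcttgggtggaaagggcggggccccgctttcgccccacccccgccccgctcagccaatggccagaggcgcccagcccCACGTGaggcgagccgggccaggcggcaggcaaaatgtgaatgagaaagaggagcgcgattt
OTX2 outer start (chr14:56810480-56810729, minus strand): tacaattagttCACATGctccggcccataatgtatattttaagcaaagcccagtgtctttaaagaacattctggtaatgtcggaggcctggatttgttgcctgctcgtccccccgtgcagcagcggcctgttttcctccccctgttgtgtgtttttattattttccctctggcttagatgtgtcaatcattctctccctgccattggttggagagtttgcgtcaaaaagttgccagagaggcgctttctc
OTX2 inner start (chr14:56805668-56805917, minus strand): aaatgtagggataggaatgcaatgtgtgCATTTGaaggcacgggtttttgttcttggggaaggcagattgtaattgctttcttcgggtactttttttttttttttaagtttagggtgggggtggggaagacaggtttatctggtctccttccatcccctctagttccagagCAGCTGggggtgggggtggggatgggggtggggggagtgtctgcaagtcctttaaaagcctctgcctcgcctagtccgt
None of these 5 windows overlapped an exon of its own gene in GENCODE v29, and the inner OTX2 window lies in an intron of the longer OTX2 transcripts. The RefSeq start was 83 bases from the nearest GENCODE v29 start for PAX5, 515 for LMX1B, 17 for GBX2, 0 for the outer and 4 for the inner OTX2 start. Which start the cells used is not shown by counts per gene. CANNTG, which reads the same on both strands, was present in 7 of the 12 windows, against 61.8% of all 35116 RefSeq windows of that length. The NEUROG-type form CAGATG, a subset of CANNTG, was searched on both strands and was in 0 of the 12 windows, against 12.2% of all windows. The OTX core TAATCC was in 0 of the 12 windows and 5.62% of all windows, and the ETS core CCGGAAG was in 0 and 8.52%. GC content was 47.2% and 50.0% before the OTX2 starts, 69.6% for PAX5, 72.0% for GBX2, 76.4% for LMX1B and 81.2% for EN2, with a median of 58.0% over all windows.

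With doxycycline for 5 days, PAX5 and LMX1B were far higher than without it, and OTX2 and OTX1 were lower. On day 11 without doxycycline OTX2, OTX1 and PAX8 were higher than on day 0, while with doxycycline OTX2 had 1.94 CPM and the other 2 had 1 count or none. A gene was counted as different when its ratio was at least 4-fold after 1 CPM was added to both values and it had at least 10 CPM in either library. On day 5 with doxycycline, 2 of the 3 listed genes at that level were higher and 0 lower, against 24.1% of all genes at that level that differed in either direction. On day 11 with doxycycline, 0 of 3 were higher and 3 lower, against 21.4% of all genes that differed. Without doxycycline, 3 of 3 were higher on day 11 than on day 0, where 4.57% of all genes differed, and 0 of 1 differed between day 5 and day 0, where 1.05% did. With doxycycline, 2 of 3 were lower on day 11 than on day 5, where 1.96% of all genes differed. A gene that reached 10 CPM in only 1 library of a pair could differ only towards that library. This fixed the direction of PAX5 and LMX1B on day 5, and of OTX1 and PAX8 on day 11 against day 0. It also fixed that of all 3 genes on day 11 with doxycycline, against control and against day 5. The same applies to list genes below at 10 CPM in 1 library alone, so such counts are no test of direction. The median log2 ratio of all genes at that level was 0.23 on day 5 and 0.16 on day 11 for doxycycline over control. It was 0.06 and -0.18 with library totals in place of TMM and 0.63 and 0.17 with the authors' normalized values. For the other 3 comparisons this median lay between -0.41 and 0.09 over the same scalings. Where a listed gene reached 1 CPM in either library, its direction was compared among these scalings, and the ratios of OTX2 and OTX1 for day 5 against day 0 without doxycycline changed direction. These are bulk samples, so fewer cells of a type and less RNA per cell cannot be told apart.

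**Figure D1:**
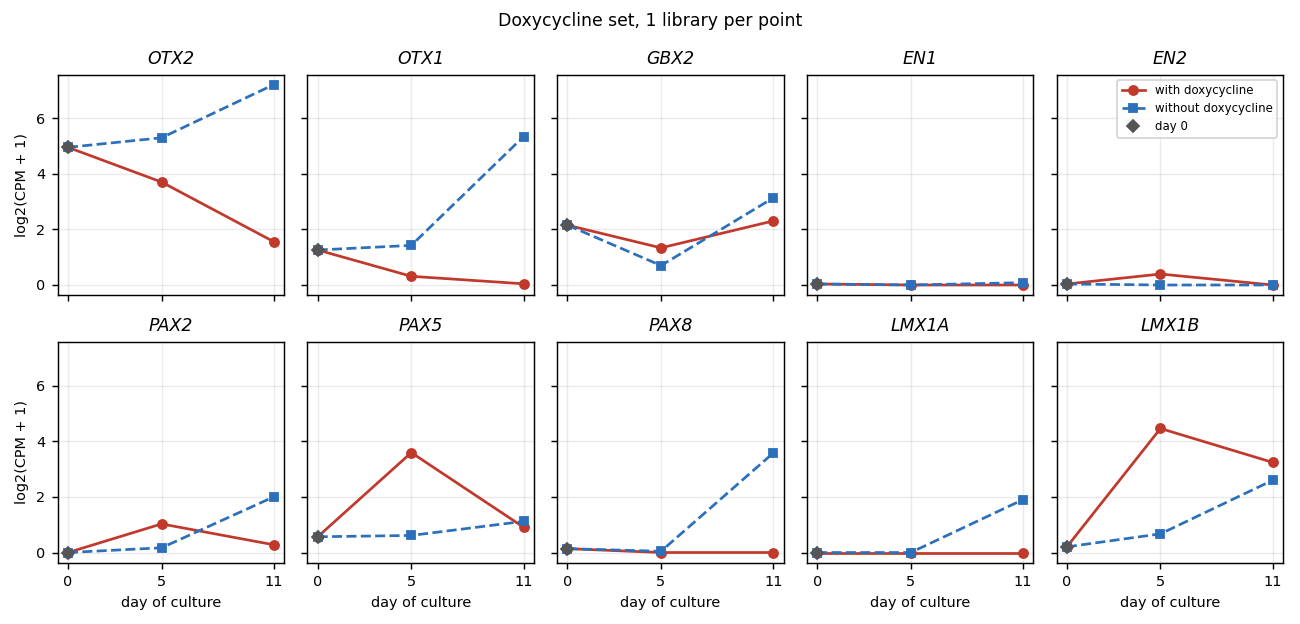
log2(CPM + 1) of the 10 genes by day of culture in the doxycycline set, 1 library per point, with doxycycline (red circles), without it (blue squares) and at day 0 (grey diamonds). OTX2, OTX1, PAX2, PAX8 and LMX1A end far above their doxycycline-treated counterpart on day 11 without doxycycline, while PAX5 and LMX1B peak on day 5 with doxycycline.

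OTX2, a homeodomain factor that is on in stem cells and in the forebrain and midbrain, was the most abundant gene of the list in cells without doxycycline. Its level was 29.9 CPM on day 0. With doxycycline it had 12.0 CPM on day 5 and 1.94 CPM on day 11, and without doxycycline it had 38.3 CPM on day 5 and 147 CPM on day 11. The levels with and without doxycycline thus moved apart with time. OTX2 was 3.18-fold lower with doxycycline on day 5 (counting interval 2.87 to 3.54), which falls short of the 4-fold limit. It was 75.8-fold lower on day 11 (59.2 to 98.6). Without doxycycline it was 4.91-fold higher on day 11 than on day 0 (4.61 to 5.24). Its ratio of day 5 to day 0 without doxycycline, 1.28, is no direction, because with the authors' normalized values the log2 ratio was -0.0125 in place of 0.34. With doxycycline OTX2 was 6.20-fold lower on day 11 than on day 5 (4.77 to 8.17). Of 8 pluripotency genes at 10 CPM or more 5 were at least 4-fold lower and 0 higher with doxycycline on day 5, where 24.1% of all genes differed, and 5 of 5 were lower on day 11, where 21.4% did. On day 11 without doxycycline 6 of 8 were lower than on day 0, where 4.57% of all genes differed, while OTX2 was higher. The part of remaining stem cells in the OTX2 level was not tested.

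OTX1, the paralog of OTX2 that is expressed in the forebrain and midbrain, was low until day 11 without doxycycline. Its level was 1.39 CPM on day 0. On day 5 it had 0.242 CPM with doxycycline and 1.68 CPM without, and on day 11 it had 0.0303 CPM (1 count) with doxycycline and 39.4 CPM without. It was 6.96-fold lower with doxycycline on day 5 (3.51 to 15.3) at a level below 10 CPM. On day 11 the ratio was 1301-fold, with an interval of 233 to 51431 because it rests on 1 count. Without doxycycline OTX1 was 28.3-fold higher on day 11 than on day 0 (21.6 to 37.8).

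GBX2, the homeodomain factor of the anterior hindbrain, stayed below 10 CPM in all 5 libraries of the doxycycline set. Its level was 3.44 CPM on day 0. On day 5 it had 1.52 CPM with doxycycline and 0.624 CPM without, and on day 11 it had 3.94 CPM with doxycycline and 7.77 CPM without. It was 2.44-fold higher with doxycycline on day 5 (1.46 to 4.27) and 1.97-fold lower on day 11 (1.59 to 2.45). It was 5.52-fold lower on day 5 without doxycycline than on day 0 (3.44 to 9.33), and 2.26-fold higher on day 11 than on day 0 (1.83 to 2.80).

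PAX5, a paired-domain factor of the midbrain and hindbrain border and of B cells, peaked on day 5 with doxycycline. It had 0.481 CPM on day 0, 11.1 CPM with doxycycline and 0.530 CPM without on day 5, and 0.879 CPM with doxycycline and 1.17 CPM without on day 11. PAX5 was 20.9-fold higher with doxycycline on day 5 (12.9 to 36.2). By day 11 it was 12.6-fold lower than on day 5 with doxycycline (8.65 to 19.0), and the day 11 ratio of doxycycline to control, 0.748, has an interval that spans 1 (0.446 to 1.24). When library totals replaced TMM, the day 5 level fell under 10 CPM, and PAX5 was then not counted as different. The B-cell gene CD79A, which PAX5 is known to activate in B cells, had 0.169 CPM in the day 5 library with doxycycline.

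PAX8 and PAX2, paired-domain factors of the same subfamily as PAX5, had a different course. PAX8 had 0 counts with doxycycline on both days. Without doxycycline it had 4 counts on day 0, 1 on day 5 and 364 (10.96 CPM) on day 11. It was at least 121-fold lower with doxycycline on day 11, taking 3 counts as the floor, and 108-fold higher on day 11 without doxycycline than on day 0 (41.9 to 399). PAX8-AS1, an antisense gene, shares 9.26% of the exon bases of PAX8 and had 27 counts of its own in that library. The library kit does not mark strand, so reads in the shared part cannot be told apart. The same holds for antisense genes that share 9.55% of the exon bases of GBX2, 4.18% of LMX1A and 0.86% of PAX5. These 3 antisense genes had at most 4 counts of their own in any library. PAX2 had 0 counts on day 0. On day 5 it had 1.04 CPM with doxycycline and 0.125 CPM without, and on day 11 it had 0.212 CPM with doxycycline and 3.01 CPM without. It was 8.34-fold higher with doxycycline on day 5 (3.03 to 32.0) and 14.2-fold lower on day 11 (6.64 to 36.2), at levels too low to be counted.

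LMX1B, a LIM-homeodomain factor of the isthmus, the dorsal spinal cord, and dopaminergic and serotonergic neurons, had its highest level of the doxycycline set on day 5 with doxycycline. It had 0.152 CPM on day 0, 21.0 CPM with doxycycline and 0.592 CPM without on day 5, and 8.45 CPM with doxycycline and 5.06 CPM without on day 11. LMX1B was 35.5-fold higher with doxycycline on day 5 (22.6 to 59.3) and 1.67-fold higher on day 11 (1.37 to 2.04). The distance between the treatments closed from both sides. With doxycycline it was 2.49-fold lower on day 11 than on day 5 (2.17 to 2.86), and without doxycycline it was 33.3-fold higher on day 11 than on day 0 (15.0 to 92.0). FEV and TPH2, markers of serotonergic neurons, had 0.169 and 0.0483 CPM in the day 5 library with doxycycline.

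LMX1A, the paralog of LMX1B, was seen in 1 of the 13 libraries. It had 91 counts (2.74 CPM) on day 11 without doxycycline and 0 in the others, and it was at least 30.2-fold lower with doxycycline on day 11. EN2, a homeodomain factor of the midbrain and anterior hindbrain, had 13 counts (0.314 CPM) on day 5 with doxycycline and at most 1 in the other 4 libraries of that set. It was at least 3.36-fold higher with doxycycline on day 5. EN1, its paralog, had at most 2 counts in any library of the doxycycline set and at most 3 in the FGF2 set, and no fold is given for it.

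In the FGF2 set the list turned over between day 6 and day 12. Of the 5 tested genes GBX2 rose, and OTX2, PAX5, LMX1B and EN2 fell, in day 12 control against day 6 control cultures. The edgeR quasi-likelihood test called 64% of all 20142 tested genes in that comparison, so a call in it is common and says little about the list. The median log2 change of the 5 genes that passed the filter was -2.76, against -0.0045 for all tested genes. That median is the value of EN2 itself, which rests on few reads. EN2 passed the filter through its day 6 libraries, so only lower on day 12 was open to it. The median is therefore no test of the list. Harvest day and the end of doxycycline change together here and cannot be told apart, and NEUROG2 fell with them to the levels given above.

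OTX2 had 0.486 and 0.213 CPM in the day 12 control libraries, against 59.6 and 62.8 CPM in the day 6 control libraries. The groups did not come near each other. The log2 change was -7.42 ± 0.193 (SE, n = 2 per group), a 171-fold lower level, with an edgeR adjusted p of 7.56e-14. It rests on 12 and 5 counts in the day 12 control libraries. The log2 change was -8.15 without day 12 control replicate 1 and -6.96 without day 12 control replicate 2. GBX2 went the other way, with 39.9 and 38.5 CPM in day 12 control libraries and 1.80 and 0.986 CPM in day 6 control libraries. Both day 12 libraries were far above both day 6 libraries, and the log2 change was 4.81 ± 0.174 (SE), a 28.0-fold higher level (edgeR adjusted p = 2.22e-12).

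PAX5 had 5.55 and 3.75 CPM in day 12 control libraries, against 49.5 and 44.2 CPM in day 6 control libraries. The log2 change was -3.33 ± 0.188 (SE, n = 2 per group, edgeR adjusted p = 4.44e-10). LMX1B had 0.851 and 1.24 CPM in day 12 control libraries and 3.22 CPM in each day 6 control library. It was 3.08-fold lower, with a log2 change of -1.62 ± 0.262 (SE, edgeR adjusted p = 6.14e-05). EN2 rested on few reads, with 2 and 1 counts in day 12 control libraries and 9 and 12 counts in day 6 control libraries. Its log2 change of -2.76 ± 0.801 (SE, edgeR adjusted p = 0.00709) was no longer called with DESeq2 (adjusted p = 0.0514), without day 6 control replicate 2 (0.0547) or without day 12 control replicate 2 (0.0611).

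**Figure D2:**
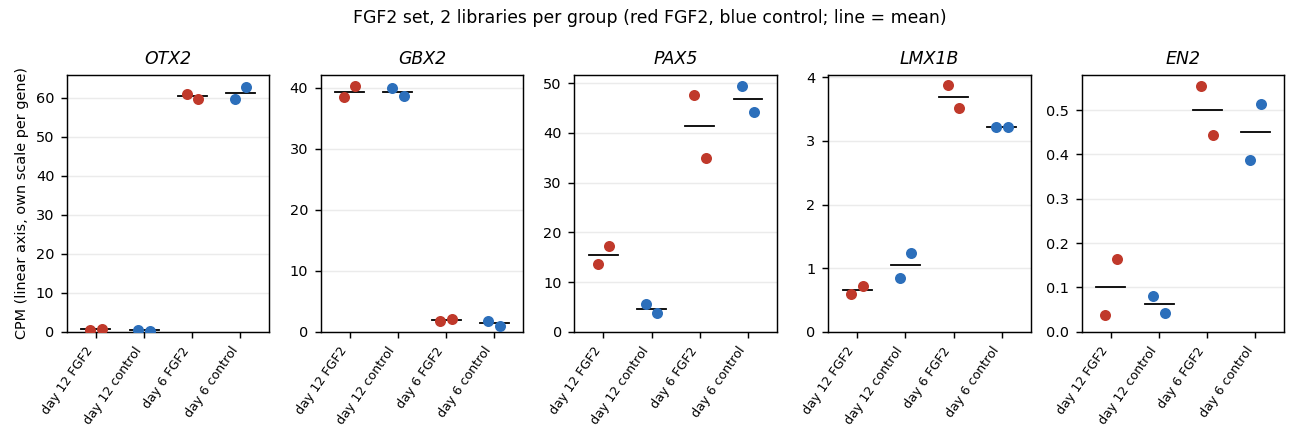
CPM of the 5 tested genes in the FGF2 set on a linear axis with its own scale for each gene, 1 point per library (red FGF2, blue control) and a line at the mean of 2 libraries. OTX2, PAX5, LMX1B and EN2 are lower on day 12 and GBX2 is higher. The day 12 FGF2 libraries of PAX5 (13.7 and 17.3 CPM) lie above their controls (5.55 and 3.75 CPM). Those of OTX2 also lie above their controls and those of LMX1B below, and neither gene was called.

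The other 5 genes of the list stayed under the filter in the FGF2 set. OTX1 had 0 to 6 counts per library, PAX2 had 0 to 9, and EN1 had 0 to 3. PAX8 and LMX1A had 0 counts in all 8 libraries, which allows at most 3 counts per library, or 0.0988 to 0.129 CPM. PAX2 had 3 and 9 counts in day 12 FGF2 libraries, 5 and 1 in day 12 control libraries, 1 and 0 in day 6 FGF2 libraries, and 1 and 1 in day 6 control libraries. No difference between groups was detectable at that depth for these genes.

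PAX5 rose with late FGF2, given on the last 6 days. PAX5 had 13.7 and 17.3 CPM in day 12 FGF2 libraries, against 5.55 and 3.75 CPM in day 12 control libraries, so both libraries with FGF2 were above both without. It averaged 15.5 ± 2.52 CPM with FGF2 and 4.65 ± 1.27 CPM in control (SD, n = 2 each). The log2 change was 1.73 ± 0.196 (SE), a 3.33-fold higher level with an interval of 2.49 to 4.45, and the edgeR adjusted p was 8.00e-05. PAX5 was the 1 called gene of the 5 tested, where 2.17% of all tested genes were called. It was also called under each of the 14 alternative settings, with log2 changes of 1.48 to 2.06. In the authors' deposited tables the late log2 change of PAX5 was 0.983 from DESeq2 (adjusted p = 2.27e-14) and 1.75 from limma (adjusted p = 3.10e-06). DESeq2 run here on the raw counts gave 1.73, and the cause of the smaller deposited DESeq2 value was not tested. The PAX5 level with late FGF2 lay below that of all 4 day 6 libraries.

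The other 4 tested genes were not called with late FGF2. GBX2 had 38.4 and 40.2 CPM in day 12 FGF2 libraries and 39.9 and 38.5 CPM in day 12 control libraries, which overlap. Its log2 change was 0.0034 with a 95% interval of -0.24 to 0.25, so the data leave room for a change of up to about 1.19-fold in either direction. OTX2 had 0.524 and 0.790 CPM with FGF2 and 0.486 and 0.213 CPM in control, from 5 to 24 counts per library. Its groups did not overlap. Its log2 change of 0.90 (interval 0.07 to 1.73) had an unadjusted p of 0.0348 and an edgeR adjusted p of 0.403. It was 1.63 without day 12 control replicate 1 and 0.44 without day 12 control replicate 2, not called either way. LMX1B had 0.598 and 0.724 CPM with FGF2 and 0.851 and 1.24 CPM in control, also without overlap. Its log2 change was -0.64 (interval -1.34 to 0.05, edgeR adjusted p = 0.510). EN2 had 1 and 5 counts with FGF2 and 2 and 1 in control, too few for a direction.

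Early FGF2, given together with doxycycline for 6 days, gave no called gene in the list. The same fit called 0 of all 20142 tested genes (0%), with 658 at an unadjusted p under 0.05. DESeq2 and limma voom also called 0, with 299 and 682 at an unadjusted p under 0.05. PAX5 had 47.7 and 35.0 CPM in day 6 FGF2 libraries and 49.5 and 44.2 CPM in day 6 control libraries, so the groups overlap. Its log2 change was -0.18 (interval -0.50 to 0.14, edgeR adjusted p = 0.927). Without day 6 FGF2 replicate 1 it was -0.42 and called (adjusted p = 0.0313), along with 2523 genes in all, and without day 6 FGF2 replicate 2 it was 0.03. OTX2 had 61.0 and 59.8 CPM with FGF2 and 59.6 and 62.8 CPM in control, with an interval of -0.24 to 0.20 on the log2 scale. GBX2 had 1.80 and 2.11 CPM with FGF2 and 1.80 and 0.986 CPM in control, with a log2 change of 0.48 (interval -0.04 to 1.01, edgeR adjusted p = 0.927). LMX1B had 3.88 and 3.51 CPM with FGF2 and 3.22 CPM in both controls, with a log2 change of 0.20 (interval -0.26 to 0.66). EN2 had 16 and 12 counts with FGF2 and 9 and 12 in control, with a log2 change of 0.15 (interval -0.99 to 1.29).

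The difference between the late and the early effect was tested as an interaction. For PAX5 it was 1.91 ± 0.249 on the log2 scale (SE, interval 1.38 to 2.44), with an edgeR adjusted p of 0.00083, where 0.73% of all tested genes were called. Leaving out each library in turn gave 1.67 to 2.24, all called. OTX2 (0.92, adjusted p = 0.632), GBX2 (-0.48, adjusted p = 0.781), LMX1B (-0.84, adjusted p = 0.678) and EN2 (0.56, adjusted p = 0.966) were not called.

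**Figure D3:**
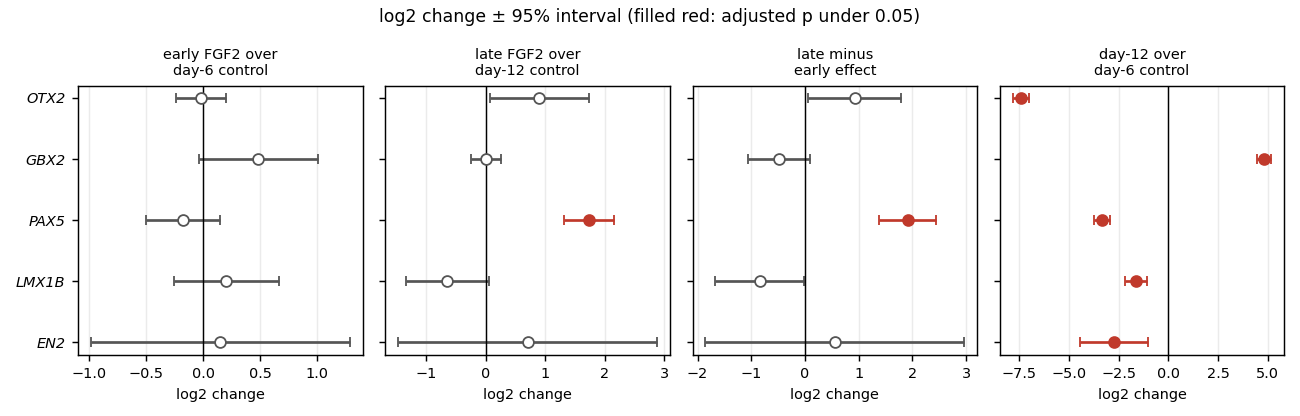
log2 change with its 95% interval for the 5 tested genes in the 4 comparisons of the FGF2 set, each panel with its own axis, filled red where the adjusted p is under 0.05. PAX5 is the gene past the threshold with late FGF2 (1.73) and in the late minus early effect (1.91), while all 5 are past it for day 12 over day 6 control.

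Levels of different genes were compared per length, as CPM per kb of exon. With doxycycline on day 5 OTX2 (3.67 CPM per kb) and LMX1B (3.61) led, followed by PAX5 (1.19) and GBX2 (0.658). With doxycycline on day 11 GBX2 (1.70 CPM per kb) and LMX1B (1.45) led, and OTX2 had 0.593. Without doxycycline on day 11 OTX2 (44.9 CPM per kb) led, followed by OTX1 (8.16), GBX2 (3.36) and PAX8 (1.48). In day 12 FGF2 libraries GBX2 averaged 17.0 ± 0.527 CPM per kb, PAX5 1.66 ± 0.270 and OTX2 0.201 ± 0.0576 (SD, n = 2). In day 12 control libraries GBX2 averaged 16.9 ± 0.414 CPM per kb and PAX5 0.498 ± 0.136, while LMX1B (0.179 ± 0.0468) and OTX2 (0.107 ± 0.0590) lay about 1 SD apart. In day 6 FGF2 libraries OTX2 averaged 18.5 ± 0.254 CPM per kb and PAX5 4.43 ± 0.967, while GBX2 (0.844 ± 0.0940) and LMX1B (0.634 ± 0.0442) came next. In day 6 control libraries OTX2 averaged 18.7 ± 0.705 CPM per kb and PAX5 5.02 ± 0.402, while GBX2 (0.779 and 0.426 in the 2 libraries) and LMX1B (0.552 in both) overlapped.

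The ratio of OTX2 to GBX2 per length compares these genes, which mark either side of the isthmus. They did not always move in opposite directions. In the doxycycline set both were lower on day 5 with doxycycline than on day 0, and both were higher on day 11 without it than on day 0. In the doxycycline set the ratio was 6.15 on day 0. It was 5.58 with doxycycline and 43.4 without on day 5, and 0.348 with doxycycline and 13.4 without on day 11. On both days the ratio was lower with doxycycline, and the counting intervals of the 2 treatments did not overlap (4.29 to 7.37 against 28.0 to 71.3 on day 5, and 0.254 to 0.473 against 11.8 to 15.2 on day 11). In the FGF2 set it was 0.00964 and 0.0139 in day 12 FGF2 libraries, 0.00862 and 0.00391 in day 12 control libraries, 23.9 and 20.1 in day 6 FGF2 libraries, and 23.4 and 45.1 in day 6 control libraries. GBX2 exceeded OTX2 in every day 12 library and OTX2 exceeded GBX2 in every day 6 library. These sets come from different sequencing runs and differ in how long doxycycline was given, so their values stand side by side without a test.

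**Figure D4:**
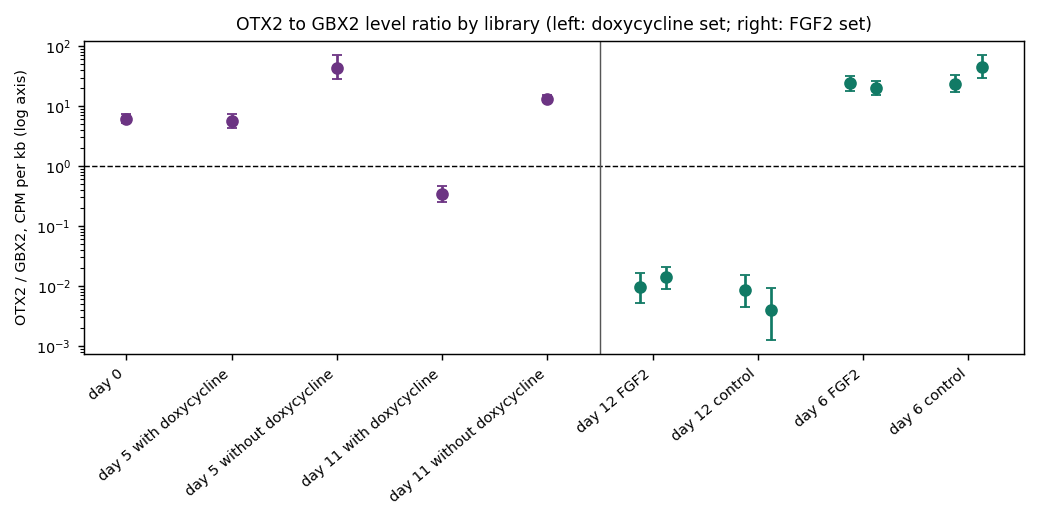
Ratio of OTX2 to GBX2 (CPM per kb of exon, log axis) in each library with its 95% counting interval, doxycycline set on the left and FGF2 set on the right; the dashed line marks equal levels. The ratio is under 1 on day 11 with doxycycline (0.348) and in all 4 day 12 libraries (0.00391 to 0.0139), and above 1 elsewhere.

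Genes known to act with the list in the isthmus and midbrain were read from lists of their own. Among 11 isthmic organizer signals and targets, 4 reached 10 CPM on day 11 without doxycycline or on day 0, and 2 of these were at least 4-fold higher on day 11 and 0 lower, where 4.57% of all genes differed. FGF8, the organizer's ligand, had 76.3 CPM on day 11 without doxycycline and 0.177 CPM on day 0, and SP8, a zinc finger factor of the isthmus and forebrain, had 113 CPM on day 11 and 10.5 CPM on day 0. WNT1, the other defining signal of the isthmus, had 1 count on day 11 without doxycycline, and its highest level in any group was under 0.04 CPM. The median log2 ratio of the 4 was 2.37, against -0.07 for all genes at that level.

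The same library carried forebrain and eye field genes. Of 15 such genes, 10 reached 10 CPM on day 11 without doxycycline or on day 0, and 9 were at least 4-fold higher and 1 lower on day 11, where 4.57% of all genes differed. Each of the 10 reached that level in only 1 of these libraries, so its direction was fixed by the filter. SIX3 had 246 CPM on day 11 without doxycycline and 0.0253 CPM on day 0, and PAX6 had 101 CPM on day 11 and 1.32 CPM on day 0. LHX2 had 56.8 CPM on day 11 and 0.0253 CPM on day 0. Their summed level was 620 CPM on day 11 without doxycycline and 9.60 to 19.6 CPM in the other 4 libraries of the set. OTX2, OTX1, PAX8 and FGF8 were thus high in the library in which forebrain genes were high, and the part of either region was not tested. On day 11 with doxycycline 9 of 9 forebrain genes at that level were lower than without it, where 21.4% of all genes differed. All 9 reached 10 CPM only without doxycycline, so lower was the only direction open to them. With doxycycline PAX6 had the most of them, 4.54 CPM.

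With doxycycline on day 5 PAX5 and LMX1B stood beside neuron genes that are not limited to the midbrain, in a comparison in which 24.1% of all genes differed. Of the 3 dopaminergic-list genes at 10 CPM or more, 3 were at least 4-fold higher and 0 lower: EBF1 with 399 CPM against 0.125 CPM without doxycycline, KCNJ6 with 50.7 CPM against 6.11 CPM without it, and DDC with 21.2 CPM against 0 counts without it. The dopaminergic floor plate factor FOXA2 had 2 counts. Of the other midbrain factors 3 of 3 were higher, with POU4F1 at 200 CPM with doxycycline against 0.811 CPM without it, LHX1 at 45.7 CPM with it against 0.249 CPM without, and PAX3 at 10.2 CPM with it against 1.40 CPM without. Sensory neuron genes moved with them: 9 of 9 at that level were higher, and ISL1 had 420 CPM with doxycycline and 0.343 CPM without. The dopaminergic and other midbrain genes counted here reached 10 CPM only with doxycycline, so only higher was open to them. Of 5 isthmic genes at that level 2 were higher and 1 lower. FGF18 had 33.4 CPM with doxycycline and 1.12 CPM without, and IRX3 had 47.8 CPM with it and 3.15 CPM without. IRX2 was lower, at 24.7 CPM with it and 116 CPM without. FGF8 had 0.508 CPM with doxycycline. EBF1 and POU4F1 are also expressed in sensory neurons, and the part of either cell type in the PAX5 and LMX1B levels was not tested.

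Between day 6 and day 12 genes of the isthmic and midbrain lists moved in both directions, where 64% of all tested genes were called. A gene that passed the filter through libraries of a single day could be called only towards that day. This fixed the direction of PAX3, GATA2, SLC6A3 and DPPA4, seen mainly on day 6, and of TH, seen on day 12. The counts of genes that rose or fell below are therefore no test of direction. Of 6 tested isthmic genes IRX3 and IL17RD rose and FGF18 fell, with IRX3 at 39.9 ± 4.12 CPM in day 12 control and 19.9 ± 2.16 CPM in day 6 control libraries (SD, n = 2 each). Of 6 other midbrain factors 1 rose (MEIS2) and 3 fell. PAX3 had 0.169 ± 0.182 CPM in day 12 control and 76.2 ± 0.805 CPM in day 6 control libraries, and GATA2 had 0.102 ± 0.0844 CPM in day 12 control and 19.2 ± 3.66 CPM in day 6 control libraries. LHX1 had 5.14 ± 0.342 CPM in day 12 control and 11.6 ± 0.618 CPM in day 6 control libraries. Of 9 tested dopaminergic genes 2 rose and 3 fell. TH, which rose, had 1.91 ± 0.0105 CPM in day 12 control and 0 counts in day 6 control libraries. SLC6A3, the dopamine transporter, fell, with 0.374 ± 0.0136 CPM in day 12 control and 25.2 ± 2.31 CPM in day 6 control libraries. The 5 tested pluripotency genes all fell, DPPA4 to 0.189 ± 0.0950 CPM in day 12 control libraries, against 75.0 ± 5.26 CPM in day 6 control libraries. Among the 10 pan-neuronal genes tested there were 6 that rose and 2 that fell. Of 4 tested hindbrain and HOX genes 2 rose, and HOXB2 and HOXB3 fell. HOXB2 had 6.15 ± 1.28 CPM in day 12 control and 22.4 ± 1.19 CPM in day 6 control libraries.

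With late FGF2, 2 of the 6 tested isthmic genes rose and 0 fell, where 2.17% of all tested genes were called. IL17RD, a feedback inhibitor of FGF signalling, had 158 ± 1.08 CPM in day 12 FGF2 and 108 ± 5.93 CPM in day 12 control libraries, a log2 change of 0.55 ± 0.0953 (SE, edgeR adjusted p = 0.00431). IRX1, a homeodomain factor, had 26.9 ± 2.79 CPM in day 12 FGF2 and 18.0 ± 0.613 CPM in day 12 control libraries, a log2 change of 0.58 ± 0.117 (SE, edgeR adjusted p = 0.0125). None of the 6 other midbrain, 9 dopaminergic, 4 hindbrain, 6 forebrain and 3 roof plate genes tested was called. Of the other lists, 2 of 10 sensory neuron, 2 of 10 pan-neuronal and 1 of 5 pluripotency genes rose, and 2 of 7 neural progenitor and 1 of 3 serotonergic genes fell. FGF8 was under the filter, with 0.143 CPM on average in day 12 FGF2 and 0.122 CPM in day 12 control libraries. EYA1, which acts with PAX2 and PAX8 in ear and kidney, fell to 82.3 ± 4.07 CPM in day 12 FGF2 libraries, against 113 ± 5.14 CPM in day 12 control libraries (edgeR adjusted p = 0.00553).

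Over the 9 group means of log2(CPM + 1), the genes most like each listed gene were found among 15852 genes with at least 5 CPM in any group. For PAX5 they were ATP5MPL (Pearson r = 0.976), RALY and FBXO28. For GBX2 they were GLIS3 (r = 0.960), RTL10 and HIP1, and for OTX2 they were PYROXD2 (r = 0.988), RCN1 and S1PR3. For LMX1B they were TMSB15B (r = 0.943), TLK2 and SDCBPP3, and for OTX1 they were ADAM28 (r = 0.997), MYO3B and FOLR1. For PAX8 they were ERP27 and the eye field gene SIX6, both at r = 1.00, and a small RNA locus. The PAX8 and OTX1 values rest on the 1 library in which these genes are high. Between the listed genes r was 0.965 for PAX8 with OTX1 and -0.67 for OTX2 with GBX2. These values describe 9 groups from 2 sequencing runs that share the day and treatment structure, and carry no test.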

How the data were processed

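The authors deposited raw read counts per gene. Their processing notes, per the submitters, name Subread, featureCounts 1.5.0 and GRCh38, and the aligner settings and annotation release are not given in the sources used here. The deposited normalized signal of the doxycycline set served as an alternative. The authors also deposited log2 fold changes and p-values for the FGF2 set, from DESeq2 and from limma, and 16 per-sample columns in those tables were not used.

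All 8 FGF2 libraries entered 1 fit in edgeR 4.0.16 (R 4.3.3) with filterByExpr, TMM scaling and the quasi-likelihood test, each group having its own mean. Tests were two-sided, with Benjamini-Hochberg adjustment over 20142 genes and calls under 0.05. The 5 doxycycline libraries have no replicates and no test. Both procedures were run on simulated data, and no result above rests on those runs. The simulated doxycycline pairs held counting error only, so they do not show how far cultures vary. Intervals and the floor of 3 counts cover counting error only. Positions and exon lengths come from GENCODE v29 (GRCh38). The 10 listed genes are given in every library. Of 13 other lists, up to 4 called genes, or the 4 of highest CPM, were to be named. CD79A, FEV, TPH2, FOXA2, WNT1, PAX3, FGF18 and IRX3 in the doxycycline set and FGF8 in the FGF2 set were named after their values were seen. The genes and lists were chosen with earlier results of these data known. Alternatives for the FGF2 set were RLE scaling, library totals, no filter, DESeq2 1.42.0, limma voom 3.58.1, a replicate block and leaving out each library. Those for the doxycycline set were library totals, another pseudocount, level or fold, and the authors' values. Some genes of the other lists are not reported here.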

Additional observations from a re-analysis of the deposited data

Results flagged for a closer look

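PAX5 differed between the time points at which FGF2 was given: its FGF2 effect was larger by 1.91 on the log2 scale on day 12 than on day 6, in the interaction test of the edgeR fit (SE 0.249, adjusted p = 0.00083). With late FGF2 both libraries (13.7 and 17.3 CPM) were above both controls (5.55 and 3.75 CPM), and with early FGF2 the libraries (47.7 and 35.0 CPM) overlapped their controls (49.5 and 44.2 CPM). The early libraries with FGF2 differ from each other in PAX5, and the interaction was 2.16 without day 6 FGF2 replicate 1 and 1.71 without day 6 FGF2 replicate 2, both called.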

How the results depend on the processing

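PAX5 with late FGF2 and in the late minus early effect, and OTX2, GBX2, PAX5 and LMX1B for day 12 against day 6 control, kept their direction and call under all 14 alternatives. When each library was left out in turn, early FGF2 called 0 to 1 listed genes and 0 to 2523 genes in all, late FGF2 called 184 to 1188 genes (656 with no filter), and the late minus early effect called 78 to 1345 genes (268 with no filter). The most calls came without a day 6 FGF2 library, and the cause was not tested. Effects that were not called changed sign when libraries were left out: early EN2 -0.0405 to 0.373, early OTX2 -0.0567 to 0.0248, early PAX5 -0.418 to 0.0309, late GBX2 -0.0277 to 0.0387, late EN2 -0.666 to 1.34 and late minus early EN2 -0.804 to 1.20. Late GBX2 was -0.0063 with RLE scaling, -0.0134 with library totals and -0.0014 with DESeq2. In the doxycycline set, library totals left 1 listed gene counted on day 5 and 1 for day 11 against day 5, because PAX5 then lay under 10 CPM. A level of 1 CPM counted 5 listed genes for day 11 against day 0 without doxycycline. At 2-fold the counts over all genes were 6467 on day 5, 5796 on day 11, 1186 and 1701 for days 5 and 11 against day 0 without doxycycline, and 909 for day 11 against day 5 with it. Replicate numbers are shared between groups with correlations of 0.0111 to 0.225 between their deviations. With the replicate block 598 genes were called with late FGF2, 206 in the late minus early effect, 13200 for day 12 against day 6 and 0 with early FGF2, and PAX5 with late FGF2 was 1.75. PAX8 and LMX1A had 0 counts in the FGF2 set, and EN2, EN1, PAX2 and OTX1 rest on 16 counts per library or fewer.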
